A study of Homo sapiens with 2 samples.

Results

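The genes of excitation-contraction coupling and calcium handling were read in outgrowth cultures of HUES9, a human embryonic stem cell line. They are 41 genes chosen by name for their role, of the 19775 genes with an array probe set named for them alone. Of the 41, 40 had at least 1 such probe set, 99 probe sets in all, and 16 genes had a single one. The gene without one was CAMK2B, a calcium/calmodulin-dependent kinase subunit, which was not analysed here. A probe set is a group of short DNA probes on the array whose combined brightness gives 1 intensity for a transcript.

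In skeletal muscle, an action potential in the surface membrane and its inward folds, the T-tubules, moves a voltage sensor, the dihydropyridine receptor, which opens the ryanodine receptor of the facing sarcoplasmic reticulum. Calcium leaves the reticulum, where it is held by low-affinity binding proteins, sets off contraction, and is pumped back by the SERCA ATPases. The meeting point of T-tubule and reticulum is the triad. Most other cells release calcium through inositol trisphosphate receptors and refill their stores through STIM and ORAI proteins.

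HUES9 cells at passage 32 were grown as floating embryoid bodies for 10 days then placed on fibronectin-coated dishes in chemically defined medium, where cells grew out and were passaged. The SB-OG cultures received SB-431542, which blocks the type I receptors of TGF-β, activin and nodal, at 10 µM in the embryoid body stage and 1 µM during outgrowth. The control-OG cultures received the vehicle DMSO at 0.01%. At passage 5 of the outgrowth, RNA came from a mixture of 3 samples per condition, and each mixture was read on 1 array, so that n = 1 per condition. No value below has a replicate error or a p-value, and their precision is limited by the number of arrays. Both conditions rest on a single cell line. An intensity above 32.6 on control-OG or 27.6 on SB-OG counts as above background, the 95th percentile of 213 probe sets for sensory receptor, hair, skin and defensin genes. The 2 arrays had median intensities of 22.6 and 21.8, and the 3′ to 5′ signal ratio of GAPDH, a sign of RNA integrity, was 0.995 and 0.958. Of the markers of pluripotent cells, NANOG, LIN28A and ZFP42 were under background on both arrays, DPPA4 was so by its brightest probe set but not by another, and SOX2 stood at 147 on SB-OG. All 10 skeletal muscle markers were above background on SB-OG and 4 were on control-OG, with summed intensities of 48117 and 372.

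Of the 40 genes, 37 exceeded background on 1 or both arrays. On control-OG 23 were, and on SB-OG 36, each by the level of its own array, which was lower on SB-OG. S100A1 (28.0), TRDN (31.6) and ITPR3 (32.2) passed on SB-OG at intensities under the control-OG level. The share of all genes above background on each array is not given here, so these counts do not set the calcium handling genes apart. Reading each gene by its brightest probe set, 22 of the 37 (59.5%) had a signal 2-fold or more above control-OG in SB-OG. A signal 2-fold or more below it was found for 3 (8.11%). The shares were 12.4% and 13.0% of the 12499 genes above background on the array. Genes of the 37 that were not among the 23 on control-OG passed through SB-OG alone, so they could be called higher but not lower. The calcium handling genes were also chosen with earlier results of these data known. The counts are thus a description and not support for the set. The median difference, log2 SB-OG minus log2 control-OG, was 1.21 over the 37 genes and 0.00 over all 12499. Differences of 16-fold or more were reached by 6 genes upward and 1 downward, where 1.14% and 0.728% of all genes were. HRC and ITPR2 were under 16-fold with background at the 99th percentile. JPH1, at a log2 of 4.01, was under it with quantile normalization (3.94), lowess (3.95), the pseudocount (3.66) and the mean of all probe sets (2.74). ITPR2 was also under it when centred (-3.99), with hybridisation control scaling (-3.56), with the pseudocount (-3.57) and by the choice of probe sets. Where 1 array alone was above background, the other was set to its background level, and the fold is a lower bound, written "at least", which depends on that level. With the 99th percentile, the log2 bound of RYR1 went from 4.98 to 4.30 and that of CASQ2 from 6.72 to 6.03. In RNA of whole cultures, more cells of a type and more RNA per cell cannot be told apart.

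**Figure D1:**
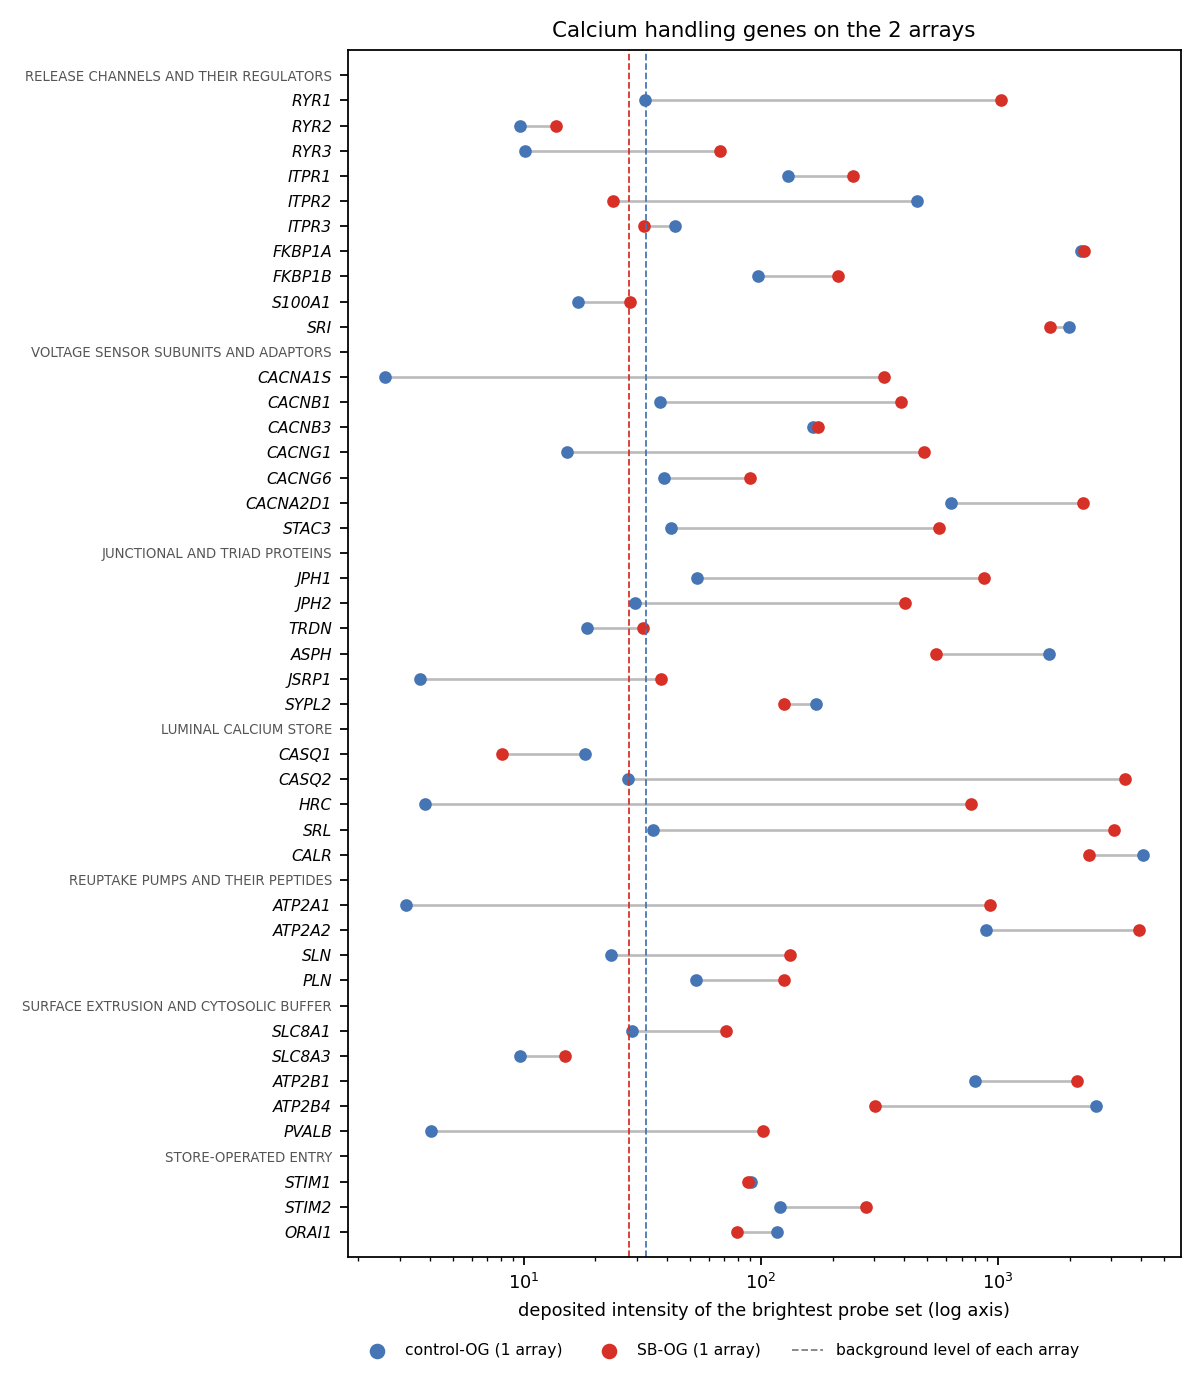
Deposited intensity (horizontal, log axis) of the brightest probe set of each calcium handling gene on the control-OG array (blue) and the SB-OG array (red), with the background level of each array as a dashed line. Genes are grouped by role. By these levels, of which that of SB-OG is the lower, 23 genes lie above background on control-OG and 36 on SB-OG. The share of all genes above background on each array is not given, so these counts do not set the genes apart.

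In the luminal store of the sarcoplasmic reticulum, 3 of 4 genes above background were higher in SB-OG and none was 2-fold lower. CASQ2, calsequestrin 2, the calcium-binding protein of the cardiac and slow skeletal reticulum, had a signal of 27.5 in control-OG and 3424 in SB-OG, at least 105-fold higher. SRL, sarcalumenin, a glycoprotein that binds calcium in the same lumen, went from 35.1 to 3072, an 87.5-fold difference. Its control-OG value lay just above background. With background at the 99th percentile, the log2 difference of SRL went from 6.45 to a bound of 5.88. HRC, the histidine-rich calcium-binding protein, stood at 3.80 and 764, at least 23.4-fold higher. All 3 genes lay close to background or under it in control-OG and far above it in SB-OG. CASQ1, calsequestrin 1, the form of fast skeletal fibres, was not above background on either array, at 18.1 and 8.04. CALR, calreticulin, which buffers calcium in the endoplasmic reticulum of cells in general, was within 2-fold at 4076 and 2416 by its brightest probe set. Its other probe sets gave differences of 0.15 and -0.01 on the log2 scale. Since CASQ2 is also a cardiac gene, heart markers were read beside it. Of 8 cardiac markers, NKX2-5, TBX5, MYL2, MYL7, MYH6 and TNNI3 were under background on both arrays, NPPA stood at 27.9 and 50.2, NPPB at 37.7 and 19.8, and all 8 summed to 132 in control-OG and 160 in SB-OG.

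The reuptake pumps and the small membrane peptides that restrain them were all 2-fold higher in SB-OG by their brightest probe set, 4 of 4. ATP2A1, which encodes SERCA1, the pump of fast skeletal fibres, read 3.18 in control-OG and 922 in SB-OG, at least 28.3-fold higher. A second probe set for it was not above background on either array, at 2.39 and 2.66. SLN, sarcolipin, an inhibitory peptide of the pump in skeletal muscle and atrium, went from 23.3 to 133, at least 4.08-fold. PLN, phospholamban, the related inhibitor of heart, slow muscle and smooth muscle, went from 52.8 to 125, a 2.36-fold difference. Its other probe sets were above background on SB-OG only, at 75.7 and 36.8, and the mean of all 3 was within 2-fold.

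The pump gene ATP2A2 gave opposite readings. It encodes SERCA2, made in a muscle form and a form found in most cells that differ at the 3′ end of the transcript. One probe set went from 887 in control-OG to 3918 in SB-OG, a 4.42-fold difference. Another went from 2344 to 1238, a log2 difference of -0.92, and a dimmer one from 86.4 to 78.3, -0.14. The probe set that was higher is marked by its name as one that can read several transcripts, and the other 2 above background are marked as specific. The remaining probe set was under background on both arrays, at 19.5 and 6.36. With the specific ones alone the gene had a difference of -0.92, and with the mean of all probe sets it was within 2-fold. The transcript form read by each is not stated in the labels or the platform table used here.

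Among the subunits of the voltage sensor and its adaptor, 6 of 7 were 2-fold higher or more and none was lower. The single probe sets of CACNA1S, CASQ2 and FKBP1B are of the kind that can read several transcripts. CACNA1S, the pore and voltage-sensing subunit of the skeletal dihydropyridine receptor, had 2.60 in control-OG and 330 in SB-OG, at least 10.1-fold higher. CACNG1, the γ subunit of the skeletal channel, went from 15.1 to 487, at least 15.0-fold. STAC3, the adaptor needed for the sensor to reach and work in the triad, went from 41.8 to 563, a 13.5-fold difference above background on both arrays. These genes set the skeletal channel apart from other calcium channels, and each was near or under background on control-OG. CACNB1, the β subunit of skeletal muscle, was 10.4-fold higher, at 37.4 and 390, and a second probe set gave 36.6 and 339. Both of those are marked by name as open to cross-hybridisation, and the probe set marked as specific went the other way, from 51.9 to 31.0. CACNA2D1, the α2δ subunit that many cell types share, was already bright on control-OG, at 630 against 2277 on SB-OG, 3.61-fold higher. CACNG6, another γ family member, was 2.32-fold higher at 38.7 and 89.9, and within 2-fold with the higher background level or a pseudocount. CACNB3, a β subunit of mainly non-muscle channels, was within 2-fold at 166 and 174.

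Of the release channels and their regulators, 3 of 9 above background were 2-fold higher and 1 was lower. RYR1, the ryanodine receptor of skeletal muscle, had 32.2 in control-OG, just under background, and 1031 in SB-OG, at least 31.6-fold higher. RYR3, a form found in embryonic muscle and brain, went from 10.1 to 67.3, at least 2.06-fold, and within 2-fold after quantile normalization. RYR2, the cardiac form, was not above background with either probe set, the brighter one at 9.59 and 13.6. ITPR2, an inositol trisphosphate receptor, read 456 in control-OG and 23.8 in SB-OG, at least 16.5-fold lower, and 2 more probe sets went from 215 to 16.2 and from 125 to 6.41. The log2 difference of -4.05 became -2.56 with the higher background level, -2.96 with specific probe sets and -3.06 with the mean of all probe sets. ITPR1, the form most abundant in brain and smooth muscle, had 130 and 245 by its brightest probe set, 1.89-fold higher and so within 2-fold, though past it on the scale of the hybridisation controls. Its other probe sets gave 118 and 112, and 76.4 and 151. ITPR3 was dim on both arrays, at 43.4 and 32.2.

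The proteins that bind these channels were mostly within 2-fold. FKBP1A, the immunophilin that sits on the skeletal ryanodine receptor but is present in nearly all cells, had 2228 and 2309, and its 4 probe sets gave log2 differences of 0.05 to 0.47. FKBP1B, the related immunophilin with a preference for the cardiac receptor, was 2.17-fold higher at 97.2 and 211. SRI, sorcin, a calcium-binding regulator of the receptor, had 1992 and 1659 by 1 probe set and 219 and 269 by another. S100A1, which raises ryanodine receptor and SERCA activity in muscle, lay just above background on SB-OG at 28.0 and under it on control-OG at 16.8, so that no fold is given.

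Triad proteins divided. The junctophilins, which tether the reticulum to the T-tubule, were both higher in SB-OG. JPH1, the skeletal form, went from 53.7 to 867, a 16.2-fold difference, with a second probe set at 13.7 and 90.0. JPH2, present in heart and skeletal muscle, went from 29.3 to 404, at least 12.4-fold. TRDN and JSRP1 lay near background or under it. TRDN, triadin, which links calsequestrin to the ryanodine receptor, had 18.4 in control-OG and 31.6 in SB-OG, too near background for a fold. JSRP1, which binds the voltage sensor, had 3.65 and 37.7, at least 1.16-fold higher, and past 2-fold without a floor or with a pseudocount. SYPL2, mitsugumin 29, a T-tubule protein, was within 2-fold at 171 and 125.

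ASPH was 2.98-fold lower in SB-OG by its brightest probe set, at 1638 and 549, yet its 9 probe sets differed in direction, and their mean was within 2-fold. The gene encodes an aspartyl hydroxylase of the endoplasmic reticulum and, by alternative transcripts, junctin and junctate, the first of which joins triadin at the ryanodine receptor. The 5 brightest probe sets ran from 1638, 1006, 652, 590 and 309 on control-OG to 549, 483, 438, 204 and 64.4 on SB-OG, and a dimmer one from 90.4 to 12.9. A further probe set went from 7.55, under background, to 72.8, at least 2.23-fold higher, and others had 41.3 and 63.1, and 3.54 and 32.8. Thus 6 of the 9 were lower in SB-OG and 3 were not. Which transcript each reads was not tested.

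**Figure D2:**
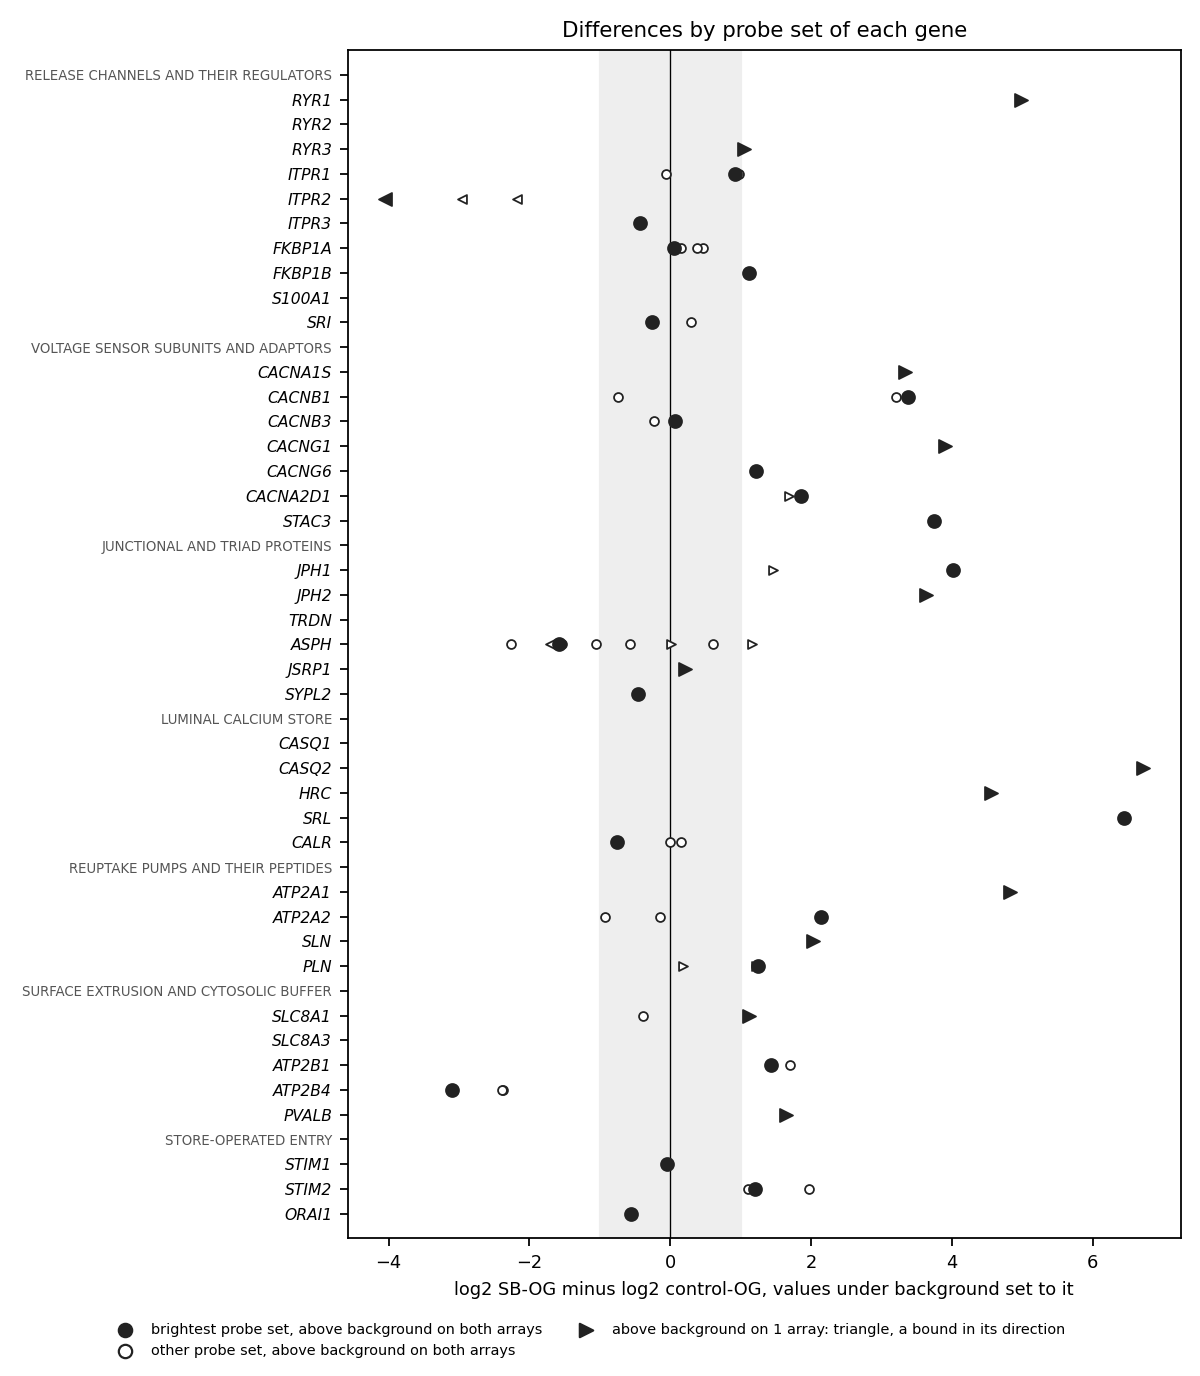
Difference between the arrays (horizontal, log2 SB-OG minus log2 control-OG, values under background set to it) by gene and role. Every probe set above background is drawn except those of S100A1 and TRDN, which were set to no difference. The grey band is within 2-fold. Large filled symbols are the brightest probe set of a gene, open ones its other probe sets, and triangles are bounds. ITPR1, SRI, CACNB1, CACNB3, ASPH, CALR, ATP2A2 and SLC8A1 have symbols on both sides of 0.

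At the surface membrane, calcium extrusion genes went in both directions. ATP2B4, a plasma membrane calcium pump, went from 2589 in control-OG to 302 in SB-OG, 8.56-fold lower, and its other probe sets from 1408 to 272 and from 146 to 28.0. ATP2B1, the pump of the same family found in most cells, went the other way, from 795 to 2139, 2.69-fold higher, with other probe sets at 436 and 1416, and at 299 and 807. All 3 probe sets of each gene were on the same side. SLC8A1, the main sodium-calcium exchanger of heart, was at least 2.17-fold higher by the brightest of its 11 probe sets, at 28.5 and 70.7. The only other one above background had 37.9 and 29.0, so that its probe sets disagree and their mean was within 2-fold. SLC8A3, the exchanger form of skeletal muscle and brain, was not above background, at 9.60 and 14.9. PVALB, parvalbumin, the cytosolic calcium buffer of fast fibres, had 4.04 in control-OG and 102 in SB-OG, at least 3.12-fold higher, though within 2-fold with the higher background level.

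Of the genes of store-operated entry, 1 of 3 was 2-fold higher. STIM2, a calcium sensor of the reticulum that responds to small losses of calcium, went from 120 to 277, 2.31-fold higher, and its other probe sets from 91.3 to 360 and from 33.6 to 72.2. STIM1, the main sensor, had 90.9 and 87.8. ORAI1, the pore in the surface membrane, had 117 and 79.1, a 1.48-fold difference downward.

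Taking every probe set on its own, 71 of the 99 exceeded background on 1 or both arrays, of which 31 were 2-fold higher or more in SB-OG and 11 lower. Over all 23391 such probe sets naming 1 gene, the shares were 12.7% and 12.0%. Here too, probe sets above background on SB-OG alone could not be called lower. Of 16 genes with more than 1 probe set above background, 8 had all their probe sets on 1 side of zero and 8 had at least 1 on the other side. In ASPH alone a pair of opposite probe sets was 2-fold apart on both sides. The SD of the log2 difference between probe sets of 1 gene, both values above background, was 0.98 over 11 of these genes and 0.46 over 4930 genes of the array.

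**Figure D3:**
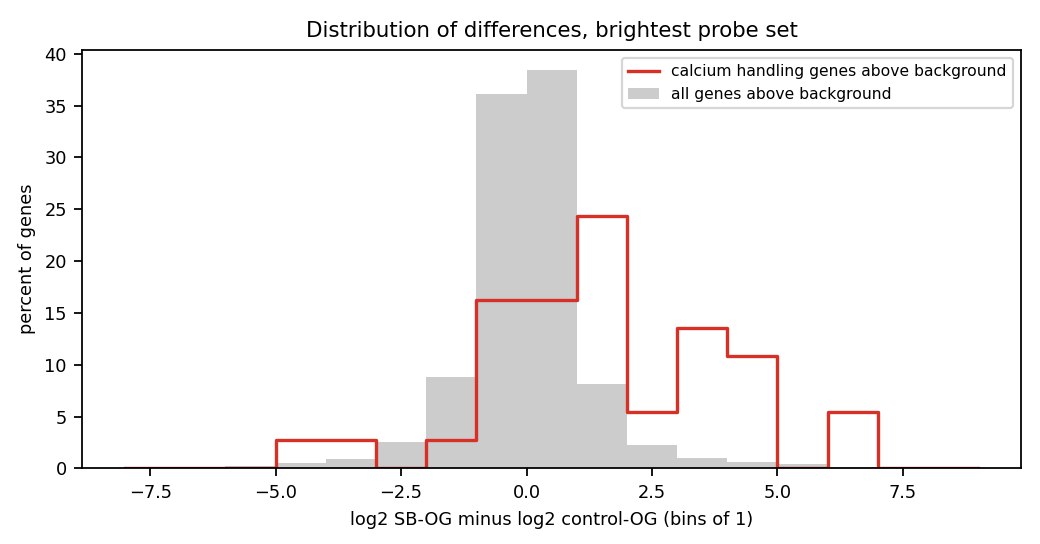
Share of genes (vertical, percent) by log2 difference SB-OG minus control-OG (horizontal, bins of 1) for all 12499 genes above background (grey) and the 37 calcium handling genes above background (red line), brightest probe set. The median is 0.00 for all genes and 1.21 for the calcium handling genes, which have 11 members at 3 or more.

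Fibroblast and stromal markers moved in the opposite direction to most of these genes and in the same direction as ITPR2, ATP2B4 and ASPH. All 6 (COL1A1, THY1, FAP, PDPN, DPP4 and LUM) were above background on both arrays and at least 2-fold lower in SB-OG, with summed intensities of 42732 and 10542, and none was at 0. Their part in the lower calcium genes was not tested. Smooth muscle markers, which bear on PLN and ITPR1, had 2 of 6 genes 2-fold higher and none lower, with sums of 10376 and 12972. Most of both sums came from ACTA2, at 9239 and 10988. MYH11 went from 8.93 to 1064, at least 32.6-fold higher, by a probe set marked by name as open to cross-hybridisation. Its 4 other probe sets above background gave log2 differences of 0.87 to 3.63. LMOD1 was 2.09-fold higher, and SMTN, CNN1 and MYOCD were lower but within 2-fold. Neuronal markers, which bear on RYR3, ITPR1 and SLC8A3, were higher for 3 of 5 above background and lower for 1, with sums of 2922 and 4007. The similar sums hold opposite differences. DCX went from 32.5 to 1392, at least 42.7-fold higher, NEFM from 58.4 to 2233, 38.3-fold higher, and STMN2 from 2606 to 24.3, at least 94.4-fold lower. RBFOX3, ELAVL3 and ELAVL4 were under background on both arrays. The part of those cells in the result was not tested.

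Promoters are shown for some of the genes that were under background on control-OG and well above it on SB-OG. Whether these genes share regulators was not tested. The sequences are the 250 bases before the RefSeq transcription start, assembly GRCh38.p14, with the start just after the last base, for the release channel, the voltage sensor, the SERCA1 pump and 2 luminal proteins. Matches to the E-box CAGCTG or CACCTG, the kind of site that MYOD1 and MYOG bind, and to the MEF2 site were searched on both strands and are in capitals. The regions are chr1:115768715-115768964, minus strand, for CASQ2; chr19:49155397-49155646, minus strand, for HRC; chr16:28878238-28878487, plus strand, for the first of the starts of ATP2A1; chr1:201112427-201112676, minus strand, for CACNA1S; and chr19:38433441-38433690, plus strand, for RYR1.
CASQ2: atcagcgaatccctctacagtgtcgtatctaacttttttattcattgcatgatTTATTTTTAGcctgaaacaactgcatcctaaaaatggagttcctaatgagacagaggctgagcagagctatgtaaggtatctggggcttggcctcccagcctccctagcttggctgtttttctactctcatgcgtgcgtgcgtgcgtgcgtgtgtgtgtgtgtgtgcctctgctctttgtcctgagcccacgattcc
HRC: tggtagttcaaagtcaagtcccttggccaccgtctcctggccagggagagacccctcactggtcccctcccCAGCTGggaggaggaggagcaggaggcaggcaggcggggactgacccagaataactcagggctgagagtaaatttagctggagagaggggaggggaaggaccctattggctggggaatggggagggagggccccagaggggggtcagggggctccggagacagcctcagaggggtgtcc
ATP2A1: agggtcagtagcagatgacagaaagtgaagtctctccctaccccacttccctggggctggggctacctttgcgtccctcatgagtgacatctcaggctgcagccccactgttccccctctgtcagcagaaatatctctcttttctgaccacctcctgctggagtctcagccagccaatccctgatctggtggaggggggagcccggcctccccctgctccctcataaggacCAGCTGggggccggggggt
CACNA1S: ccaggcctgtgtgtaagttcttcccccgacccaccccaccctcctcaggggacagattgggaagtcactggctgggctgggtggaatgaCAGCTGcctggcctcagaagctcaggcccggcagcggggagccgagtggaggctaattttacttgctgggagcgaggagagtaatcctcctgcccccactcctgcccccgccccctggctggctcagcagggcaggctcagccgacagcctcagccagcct
RYR1: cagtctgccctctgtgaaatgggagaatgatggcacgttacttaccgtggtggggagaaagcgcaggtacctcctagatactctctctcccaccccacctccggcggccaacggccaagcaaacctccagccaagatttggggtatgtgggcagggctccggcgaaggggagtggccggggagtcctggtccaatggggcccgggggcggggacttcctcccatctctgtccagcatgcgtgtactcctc

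In these windows CASQ2 held a MEF2 site 197 to 188 bases before the start. HRC held CAGCTG at 179 to 174, CACNA1S at 161 to 156 and ATP2A1 at 19 to 14 bases before it. They are all 3 of the promoters with CAGCTG among the 23 of genes 2-fold higher, so the windows shown are not typical of those. No match lay in the RYR1 window, nor in that of the other start of ATP2A1, which is not printed. PVALB held a MEF2 site at 177 to 168 bases before 1 of its starts, and ATP2A2 held 2 overlapping matches to it, the first at 64 to 55. Promoters of 32 of the 41 genes were in the table, 45 in all. Of the 23 promoters of genes 2-fold higher in SB-OG, 5 (21.7%) held an E-box of either kind and 3 (13.0%) a MEF2 site. Of the 22 promoters of the other genes among the 41, 10 (45.5%) held an E-box and 1 (4.55%) a MEF2 site. Of 35116 promoters of all genes, 28.7% held an E-box and 2.80% a MEF2 site. By kind, CAGCTG was in 3 of the 23 (13.0%) and in 14.0% of all promoters, and CACCTG in 2 (8.70%) and 17.5%. Matches are a description of these letters and not of binding.

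Other calcium genes were read in lists drawn from knowledge of the pathway. Of 115 such genes, 82 were above background, with 14 at 2-fold higher or more in SB-OG and 14 lower, with a median log2 difference of -0.19, and on the scale of the spiked hybridisation controls, which raises every SB-OG value, 23 were higher and 11 lower. The shares of all genes were 12.4% and 13.0% as deposited, and 24.8% and 7.14% on that scale. Among triad and T-tubule genes, 8 of 14 were 2-fold higher and none was lower. CAV3, the caveolin of muscle that takes part in T-tubule formation, went from 3.07 in control-OG to 1959 in SB-OG, at least 60.1-fold. TMEM38A, a potassium channel of the muscle reticulum, went from 34.8, just above background, to 685, 19.7-fold. BIN1, which bends the T-tubule membrane, went from 285 to 3167, 11.1-fold. The 4 further probe sets of BIN1 gave log2 differences of 3.48 to 4.82. MRLN, myoregulin, a SERCA-inhibiting peptide of skeletal muscle, had 26.9 and 3373, at least 103.5-fold higher. By the brightest probe set, 1 of 4 other pumps, exchangers and SERCA regulators above background, MRLN, was 2-fold apart. ATP2C1, a calcium pump of the Golgi, was within 2-fold by its brightest probe set, at 486 and 268, but its 3 other probe sets above background gave log2 differences of -1.66 to -1.45, and with the mean of its probe sets or the specific ones it was 2-fold lower.

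Of 23 further calcium channel subunits and RGK proteins, small GTPases that inhibit the channels, 9 were above background. By the brightest probe set none of these was 2-fold higher. GEM, an RGK protein, was 6.01-fold lower at 411 and 68.4, and the γ subunit CACNG4 was 3.52-fold lower at 107 and 30.5. Another probe set of CACNA1H, whose brightest one was set to no difference, had a log2 difference of 1.43. Of the 9, 1 was 2-fold higher on the scale of the hybridisation controls, 1 with the pseudocount and 2 without a floor. With the mean of all probe sets, none of 11 was higher and 3 were lower. All 12 luminal chaperones of the endoplasmic reticulum and Golgi were lower as deposited by their brightest probe set, 5 of them at least 2-fold. Over all 12499 genes, 6141 had a difference below 0 and 6105 above it. On the scale of the hybridisation controls 10 of the 12 chaperones were lower and 2 were higher. The mean of all probe sets gave the same split. With probe sets specific by name, 8 of 10 were lower and 2 higher, 1 of them 2-fold. Other probe sets of CANX, HSP90B1 and CALU reached log2 differences of 1.40, 0.81 and 0.33. Like most chaperones, the 6 stromal markers were lower, and their part in the lower chaperones was not tested. RCN3, a calcium-binding protein of the secretory pathway, had 336 and 36.6, 9.18-fold lower. The nucleobindins NUCB2 and NUCB1 were 4.89-fold and 3.62-fold lower.

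Channels of store-operated entry and the TRP family were lower for 9 of 9 genes as deposited by their brightest probe set, 2 of them 2-fold. They were lower for 7 of 9 on the scale of the hybridisation controls, where the median log2 difference of all genes was 0.47. TRPV2 and TRPV4 were above background on control-OG alone, so they could be called lower but not higher. Other probe sets gave log2 differences of 0.18 and 0.28 for TRPC1, and of -0.55 and 0.48 for TRPM7. Those of TRPV2, TRPC4 and SARAF were below 0. As deposited, 6141 of all 12499 genes were below 0 and 6105 above it. TRPV2 went from 186 to 21.9, at least 6.75-fold lower, and SARAF, which turns off store-operated entry, from 6233 to 2689, 2.32-fold lower. Of the mitochondrial uptake genes, 8 of 9 had a difference above 0 and 1 below it as deposited, and 7 and 2 with the mean of all probe sets. At 2-fold, 2 of 9 were higher and 1 was lower, with 5 higher on the scale of the hybridisation controls. MCUB, an inhibitory subunit of the uniporter, was 3.36-fold higher and the gatekeeper MICU2 2.41-fold higher, and MICU3 was 5.84-fold lower at 338 and 57.9.

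In the calmodulin, CaMKII and calcineurin list, 1 of 14 was 2-fold higher and 2 were lower, with 4 higher on the scale of the hybridisation controls. RCAN2, an inhibitor of calcineurin, was 16.3-fold lower at 1766 and 108. The calcineurin catalytic subunits went opposite ways, PPP3CA 3.09-fold lower at 2831 and 918 and PPP3CB 2.95-fold higher at 668 and 1973, although another probe set of PPP3CB had a log2 difference of -1.15. Of EF-hand buffers, S100 proteins and annexin A6, 2 of 11 were higher and 2 lower. S100A4 was 5.57-fold higher at 733 and 4082, ANXA6, an annexin of muscle and other membranes, 3.74-fold higher at 1152 and 4305, and the neuronal buffer CALB2 at least 4.56-fold lower at 126 and 26.5.

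**Figure D4:**
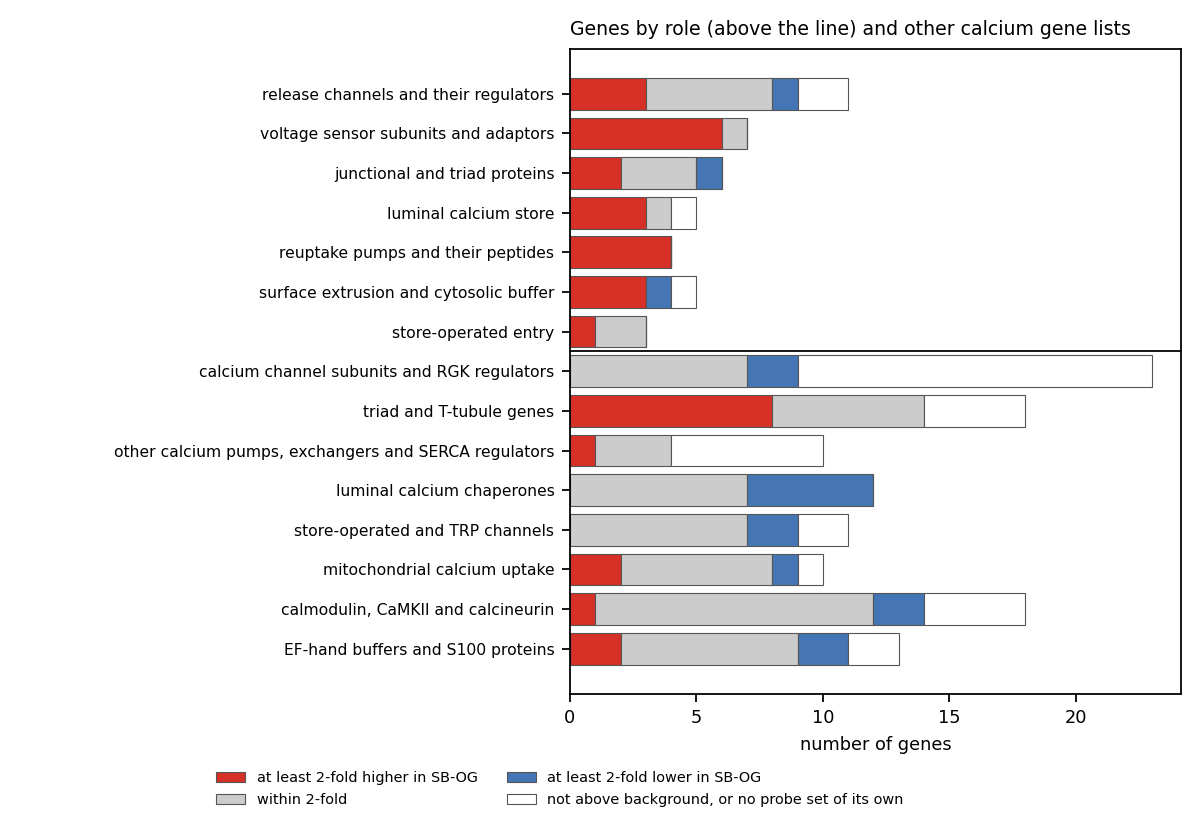
Number of genes (horizontal) 2-fold higher or more in SB-OG (red), within 2-fold (grey), 2-fold lower or more (blue), or not above background or without a probe set of their own (white), for each role above the line and each further list of calcium genes below it. Red fills 6 of 7 voltage sensor genes and 8 of 18 triad and T-tubule genes, and no luminal chaperone.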

How the data were processed

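The authors' deposited table holds linear intensity values, 54675 probe sets for each array. Per the labels' protocols, RNA was column-purified, biotin-labelled and hybridised by the manufacturer's manual. The summarising and scaling software: not given in the sources used here. The means without the lowest and highest 2% were 149.97 and 149.98, so both arrays appear scaled to 1 level, which hides a change in total RNA per cell.

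Groups were taken from the sample titles. Names came from the platform's annotation of 2016, with symbols updated by gene ID, and 41097 probe sets named 1 gene. Values were used as deposited. Background was the 95th percentile of 213 probe sets of genes for olfactory receptors, taste receptors, hair keratin-associated proteins, defensins and the cornified envelope, and lower values were set to it before log2 was taken. Where a bound went against the brighter array, the difference was set to 0 (TRDN, S100A1). Each gene was read by its brightest probe set, by mean log2 value of both arrays. With 1 array per condition no test was made.

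All members are described, and of each further list up to 3 genes furthest apart beyond 2-fold. The members, lists and markers were chosen with earlier results of these data known. Alternatives were quantile, lowess (span 0.4), centred and hybridisation control scaling, the mean of all probe sets, specific probe sets, no floor, the 99th percentile, a pseudocount of 16 and 3-fold. Python 3.11.15, numpy 2.4.6, pandas 2.3.3 and statsmodels 0.14.6 were used.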

Additional observations from a re-analysis of the deposited data

How the results depend on the processing

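Results were recomputed under up to 10 alternatives, the count of probe sets without those on the choice of probe set, the median and single genes without the 3-fold threshold, and a single gene under 7 to 9. Those for the further calcium gene lists were chosen after seeing the data. The count of genes at least 2-fold higher in SB-OG lay between 15 and 23 and that of genes lower at 2 or 3. Scaling on 11 hybridisation control probe sets raised every SB-OG value by 0.49 in log2, and with it the median of the calcium handling genes was 1.70 and that of all genes 0.47. The number of further calcium genes 2-fold higher was then 23, against 14 as deposited. With only probe sets specific by name, the median was 0.61 over 32 genes, and CACNB1 (-0.74) and ATP2A2 (-0.92) changed sign. At 3-fold, 27 of 71 probe sets were apart, against 42 at 2-fold. Of the 22 higher genes, 15 kept that call under every alternative to the 2-fold setting that gave them a value, as did 2 of the 3 lower genes, ITPR2 and ATP2B4. The mean of all probe sets placed ATP2A2, PLN, SLC8A1 and ASPH within 2-fold, and specific probe sets placed PLN there. ITPR1 was 2-fold higher on the hybridisation control scale. RYR3, CACNG6, SLC8A1 and PVALB lay within 2-fold under at least 1 of quantile normalization, a higher background and the pseudocount. JSRP1 was 2-fold higher without a floor and with the pseudocount. Bounds depend on the background level, and dim probe sets give no order. No paired analysis was possible because each condition had 1 array. Leaving out a replicate was not possible for the same reason, and the protein comparisons that had been planned were not run.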
